A study of Mus musculus with 4 samples.

Results

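Csmd1, Csmd2, Csmd3 and Lrp1b are 4 very long mouse genes whose accessible chromatin is described here in sorted Hoxa5-deficient motor neurons and in their controls. They were chosen by the pattern of their regions over these same 4 peak lists, so every value below describes these libraries and none is tested. Peaks of 4 libraries, called separately in each, were merged into 199576 regions wherever intervals shared 1 bp or more. A region belonged to the protein-coding gene whose body held its midpoint (the shortest body where several did), or else to the nearest body within 100 kb. By that rule 346 of the 199576 regions were placed at the 4 genes, which are Csmd1 with 147, Csmd2 with 83, Csmd3 with 34 and Lrp1b with 82.

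The study asked how Hox5 activity shapes motor neuron diversity, and compared 2 libraries from Hoxa5-deficient embryos with 2 from control littermates. ATAC-seq cuts open chromatin with the Tn5 transposase, so that a peak marks DNA that was accessible in the nuclei. All 4 libraries came from the cervical spinal cord on embryonic day 12.5, and all embryos carried the ChAT::GFP reporter, which labels cholinergic cells and was used to sort them. The labels give neither the Hoxa5 allele, nor the driver of any conditional deletion, nor the number of embryos behind a library, so the spread between libraries of a genotype may be partly technical.

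The 3 Csmd genes encode very large membrane proteins built of CUB and sushi domains, folds shared with regulators of the complement cascade. Csmd1 protein is known to inhibit complement, Csmd2 protein is found at dendritic spines and synapses, and Csmd3 is known for a part in dendrite growth. Lrp1b encodes an endocytic receptor of the LDL receptor family that is closely related to Lrp1. Lrp1b protein binds the amyloid precursor protein, and the human gene LRP1B is often deleted in tumours. All are long genes of the nervous system with large introns, where distal elements can lie far from the gene's ends.

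In mm10 coordinates the Csmd1 body spans chromosome 8 from 15892538 to 17535385 (1643 kb), Csmd2 spans chromosome 4 from 127986505 to 128567660 (581 kb), Csmd3 spans chromosome 15 from 47580638 to 48792558 (1212 kb) and Lrp1b spans chromosome 2 from 40595290 to 42653598 (2058 kb). Of the 346 regions, 324 had their midpoint inside a body and 22 lay outside. The annotation used gives no strand and no exons, so gene ends are named by coordinate and regions inside a body are not divided into exonic and intronic.

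Hoxa5-deficient lists were the longer, with 192771 and 206114 summits, against 165866 and 163016 in controls. The lowest local background that the deposited statistics allow, a proxy for depth, was 5.14 and 6.06 tags in Hoxa5-deficient libraries and 5.43 and 4.39 tags in controls, so depth did not follow genotype in all 4. Of 8 motor neuron genes, 7 and 8 had a region within 1 kb of a gene end in Hoxa5-deficient libraries (Isl2 lacked one) and 8 and 8 in controls. All 6 progenitor and all 4 glial genes had one in every library, as did 3 and 2 of 4 skeletal muscle genes in Hoxa5-deficient libraries and 3 and 3 in controls, and 1 of 3 endothelial genes in each library. Of 5 microglia and blood genes, 0 and 0 had one in Hoxa5-deficient libraries and 2 and 1 in controls. Open gene ends do not show expression, and the part of other cells or of depth in the values below was not tested. Both regions at Hoxa5 were called in all 4 libraries, which does not check the labels, because the deleted part is not stated in them.

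The ends of the 4 genes were open in both genotypes. Each gene had a region within 1 kb of exactly 1 of its ends, none at its other end, and all 5 such regions were called in every library. The strength of a region is given as the percentile, within one library's list, of its highest −log10 p, so 100 is the strongest. A percentile is a rank in a list of its own length, and a different percentile shows no change in level.

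At the upper-coordinate end of Csmd1, the region at chr8:17534558-17535804 (1247 bp) stood at percentiles 93.9 and 95.5 in Hoxa5-deficient libraries and 89.0 and 87.9 in controls. The authors' −log10 p there, a value of that peak which also depends on depth, was 182 and 328 in Hoxa5-deficient libraries, against 96.1 and 74.9 in controls. Both Hoxa5-deficient values lay above both control values on either scale. At the upper end of Lrp1b, chr2:42652156-42653523 (1368 bp) stood at 86.9 and 89.3 in Hoxa5-deficient libraries and 84.3 and 83.5 in controls, again without overlap.

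Csmd3 had 2 regions at its upper end. The stronger, chr15:48792231-48793582 (1352 bp), stood at 92.5 and 90.8 in Hoxa5-deficient libraries and 90.4 and 92.4 in controls, where the genotypes overlapped. The weaker, chr15:48791629-48792146, stood at 65.8 and 70.1 in Hoxa5-deficient libraries and at 58.1 and 25.8 in controls, with control replicate 2 far below the other 3. The end of Csmd2 gave another order. Its lower-coordinate end carried a weak region, chr4:127986561-127986977 (417 bp), at 42.2 and 60.0 in Hoxa5-deficient libraries and 65.4 and 56.1 in controls. That region lies in an overlapping gene, CK137956, and so was not counted among the 83. The stronger region chr4:127987761-127989220, 1.99 kb inside Csmd2, stood at 79.5 and 80.2 in Hoxa5-deficient libraries and at 82.0 and 82.9 in controls, so it ranked lower in both Hoxa5-deficient lists. It spans the upper end of CK137956, at 127988302, and was placed at Csmd2 because its midpoint lies past that end.

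More regions were called at all 4 genes in each Hoxa5-deficient library than in either control when every deposited peak was used. Csmd1 and Csmd3 lost this order with an equal number of peaks per list, a setting described below. With every peak, Csmd1 had 70 and 77 regions in Hoxa5-deficient libraries and 53 and 57 in controls. Csmd2 had 54 and 69 in Hoxa5-deficient libraries, against 32 in each control. Lrp1b had 54 and 58 in Hoxa5-deficient libraries and 25 and 28 in controls. The genotypes did not overlap at any of these 3 genes, and the gap was widest at Lrp1b relative to its control count. Csmd3 came nearest to overlap, with 27 and 19 regions in Hoxa5-deficient libraries and 17 as the higher of the control counts, 15 being the lower.

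Together the 4 genes averaged 214 ± 12.7 regions in Hoxa5-deficient libraries and 129.5 ± 6.36 in controls (SD, n = 2 each), a ratio of 1.65 or 0.72 on the log2 scale. By gene the log2 ratio of Hoxa5-deficient over control means was 1.08 at Lrp1b, 0.94 at Csmd2, 0.52 at Csmd3 and 0.42 at Csmd1. The same ratio was 0.47 over the other 222 protein-coding genes with a body of 500 kb or more and 0.25 over all regions. At Csmd3 it was 0.25 without Hoxa5-deficient replicate 1, the library with 27 regions, beside 0.31 over all regions at that setting. With all libraries, Lrp1b and Csmd2 lay above the values of long genes and of all regions, Csmd3 lay close to that of other long genes, and Csmd1 lay between the value of long genes and that of all regions. The 4 genes held 0.167% of all regions in each of the Hoxa5-deficient lists, against 0.114% and 0.125% in the control lists.

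Per 100 kb of body, Csmd2 was the densest of the 4, with 9.29 and 11.9 regions in Hoxa5-deficient libraries and 5.51 in each control. Csmd1 had 4.26 and 4.69 in Hoxa5-deficient libraries and 3.23 and 3.47 in controls, and Lrp1b had 2.62 and 2.82 against 1.21 and 1.36. Csmd3 was the sparsest in Hoxa5-deficient libraries, with 2.23 and 1.57 against 1.24 and 1.40. Lrp1b thus lay above Csmd3 in both Hoxa5-deficient libraries and just below it in both controls, and the other neighbours kept their order in all 4. Other genes of 500 kb or more had 6.08 and 6.49 regions per 100 kb in Hoxa5-deficient libraries and 4.46 and 4.62 in controls, below Csmd2 and above the other members.

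**Figure D1:**
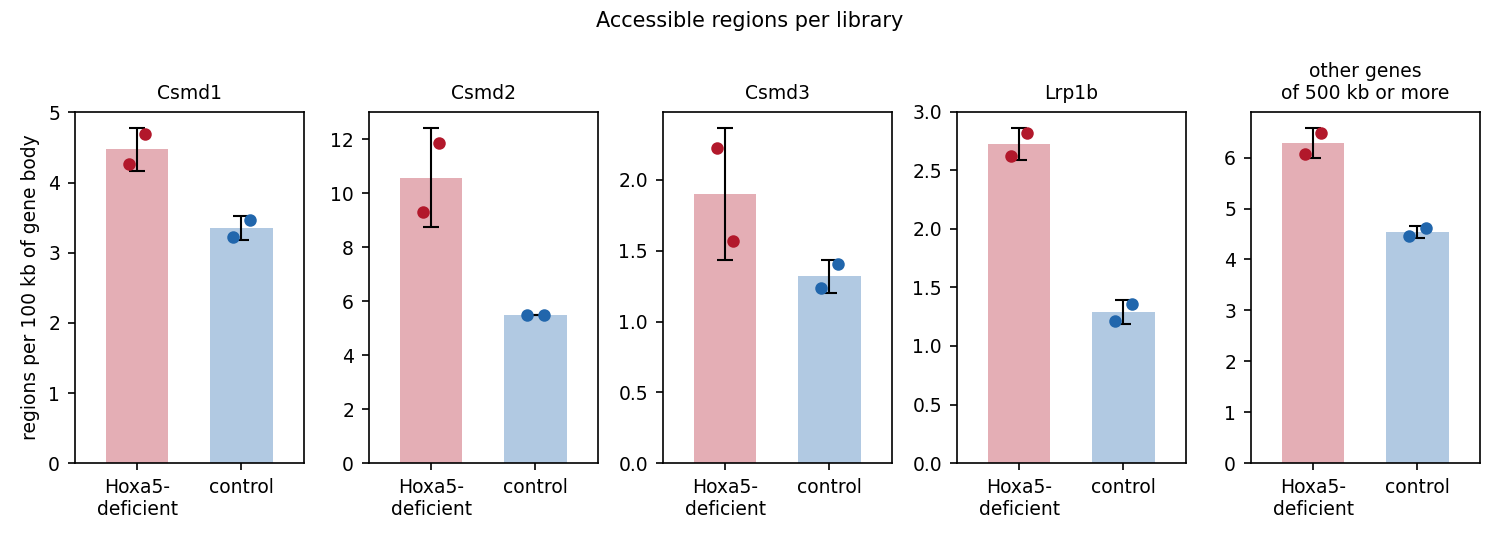
Accessible regions per 100 kb of gene body (y axis, from 0, a separate scale in each panel) at Csmd1, Csmd2, Csmd3, Lrp1b and the other 222 genes of 500 kb or more. Points are libraries, bars are means and error bars are SD (n = 2 each); every Hoxa5-deficient point lies above both control points with all deposited peaks, but not at Csmd1 or Csmd3 when each list is held to an equal number of peaks.

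The excess in Hoxa5-deficient libraries depended in part on list length. With each list held to its strongest 163016 peaks, Lrp1b kept 36 and 36 regions in Hoxa5-deficient libraries against 25 and 28 in controls, and Csmd2 kept 41 and 52 against 31 and 33. Csmd3 had 21 and 16 against 15 and 17 and then overlapped. Csmd1 had 51 and 50 in Hoxa5-deficient libraries against 51 and 57 in controls, so its log2 ratio turned from 0.42 to −0.10. The ratio over the 4 genes was then 0.24, beside −0.06 over all regions.

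Regions called in both Hoxa5-deficient libraries and in neither control, termed mutant-only, numbered 68 of the 346 (19.7%), beside 10.3% of all regions and 15% of those at other genes of 500 kb or more. Regions called in both controls and in neither Hoxa5-deficient library, termed control-only, numbered 4 (1.16%), beside 3.42% of all regions and 3.26% at the other long genes. This low share needed both controls, because with 1 control left out it was 12.9% (without replicate 1) and 12.6% (without replicate 2) at the 4 genes, beside 12.8% and 14.4% of all regions. With only peaks of −log10 q of 5 or more it was 3.70% beside 4.37%. With an equal number of peaks per list it was 4.27% beside 5.64%. The choice of the 4 genes used these counts, so the excess of mutant-only regions is a description. With 2 libraries a side, an exact two-sided permutation test could not go below 0.333 in any case.

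Each gene had more mutant-only than control-only regions. Lrp1b had 21 mutant-only regions (25.6% of its regions) and 2 control-only regions, with all peaks the highest mutant-only share of the 4. Csmd2 had 18 (21.7%) and none control-only, Csmd1 had 24 (16.3%) and 1, and Csmd3 had 5 (14.7%) and 1. With lists held to an equal number of peaks the counts were 11 mutant-only and 4 control-only at Lrp1b, 12 and 0 at Csmd2, 13 and 6 at Csmd1, and 4 and 2 at Csmd3. The mutant-only shares were then 17.5% at Lrp1b, 17.4% at Csmd2, 13.3% at Csmd3 and 10.9% at Csmd1, beside 7.78% of all regions. The control-only shares were 6.35% at Lrp1b, 0% at Csmd2, 6.67% at Csmd3 and 5.04% at Csmd1, beside 5.64% of all regions, so of the 4 Csmd2 alone stayed well below that value. With all peaks, Csmd1 and Csmd3 lay near the 15% of other long genes, and Csmd2 and Lrp1b above it. A further 62 regions of the 4 genes were called in all 4 libraries (17.9%, beside 33% of all regions and 25.7% at other long genes), 34 in exactly 3 (9.83%, beside 10% of all regions), and 15 in 1 library of each genotype (4.34%, beside 4.41%).

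The remaining 163 regions were called in a single library, which was Hoxa5-deficient for 92 (26.6%, beside 20.9% of all regions) and control for 71 (20.5%, beside 18%). Csmd1 differed here from the other members, because 48 of its 147 regions were called in 1 control only (32.7%) and 37 in 1 Hoxa5-deficient library only. These came from all libraries, with 16 and 21 in the Hoxa5-deficient and 23 and 25 in the controls. At Csmd2 the single-library regions were uneven, with 4 and 18 in Hoxa5-deficient libraries and 7 and 2 in controls, so Hoxa5-deficient replicate 2 alone supplied 18 of 31. At Csmd3, Hoxa5-deficient replicate 1 supplied 8 of 13. Single-library regions were also short, with a median width over the 4 genes of 214.5 bp where the library was Hoxa5-deficient and 193 bp where it was control, beside 387 bp for mutant-only regions and 668 bp for regions in all 4 libraries.

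**Figure D2:**
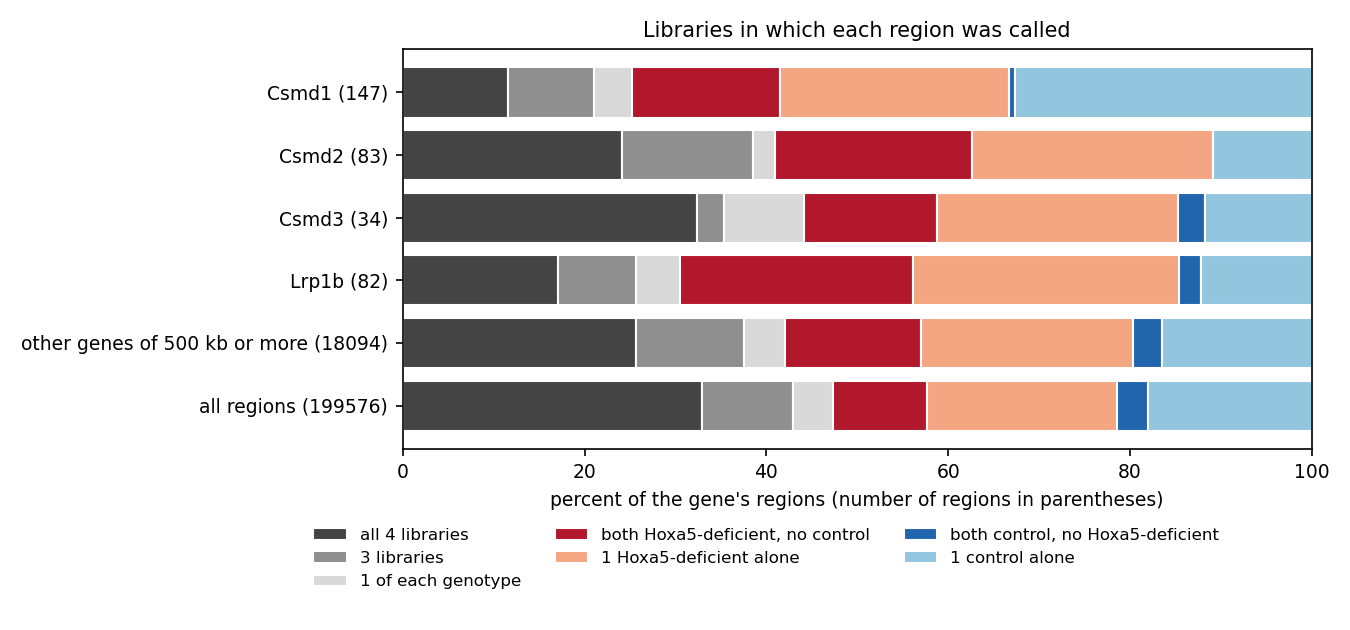
Percent of regions (x axis) by the libraries in which they were called, for the 4 genes, the other genes of 500 kb or more and all regions. Mutant-only regions made up 25.6% at Lrp1b, 21.7% at Csmd2, 16.3% at Csmd1 and 14.7% at Csmd3, beside 10.3% of all regions.

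Most mutant-only regions were weak peaks. Over the 4 genes, the lower of a region's 2 percentiles had a median of 29.6, beside 28.3 for mutant-only regions of other long genes and 27.1 for all of them. The median was 38.3 at Csmd2, 29.6 at Csmd3, 24.5 at Lrp1b and 21.5 at Csmd1. In 13 of the 68 regions (19.1%) both percentiles were 50 or more, against 17.8% of all mutant-only regions. Those 13 were 7 at Csmd1, 3 at Csmd2 and 3 at Lrp1b, and Csmd3 had none.

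The strongest mutant-only regions belonged to Lrp1b and Csmd1. In Lrp1b, chr2:40926521-40927396 (876 bp), 332 kb from the lower-coordinate end, stood at percentiles 88.5 and 89.3 in the Hoxa5-deficient libraries, with −log10 p of 85.2 and 127 and no peak in either control. By its lower percentile it was number 5 of all 20640 mutant-only regions, and its percentiles equalled those of the open end of Lrp1b in Hoxa5-deficient libraries to within 2 points. Next in Lrp1b were chr2:42222363-42223669 (1307 bp) at 74.4 and 68.4 and chr2:41628306-41628805 at 57.1 and 73.4, numbers 798 and 2161 of the 20640.

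In Csmd1, chr8:15947565-15948170 (606 bp), 55.3 kb from the lower-coordinate end, stood at 81.2 and 86.2 in Hoxa5-deficient libraries, with −log10 p of 45.5 and 91.6, number 92 of the 20640. The region chr8:16882764-16883945 (1182 bp) followed at 77.2 and 81.5, number 225. A further one, chr8:17598338-17599085, 63.3 kb beyond the upper end, stood at 74.4 and 73.8, number 381. All 3 thus ranked far above the middle of both Hoxa5-deficient lists.

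The strongest mutant-only regions of Csmd2 were of middle rank. They were chr4:128367243-128367895 at 59.9 and 68.1, chr4:128041881-128042726 at 50.2 and 70.2, and chr4:128570553-128571047, 3.14 kb beyond the upper end, at 50.2 and 64.7. At Csmd3 none passed the middle of both lists, the strongest being chr15:47722157-47722460 at 43.2 and 42.3. A neighbour less than 1 kb away, chr15:47721811-47722017, stood at 29.6 and 42.3, and chr15:48093811-48094423 stood at 33.6 and 31.6.

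All 4 control-only regions were weak in at least 1 control or lay far from the gene. Lrp1b had chr2:40510662-40510905 at 46.8 and 51.7 in controls, 84.5 kb outside the body, and chr2:41074601-41074882 inside it at 35.4 and 16.8. Csmd1 had chr8:17618232-17618582 at 26.9 and 1.69, 83.0 kb outside the body, and Csmd3 had chr15:48744569-48744898 at 5.58 and 37.5. None of these reached percentile 50 in both control lists. Among control-only regions, 72 of 590 did so at other long genes and 796 of 6825 over all regions. With only 4 such regions here, no contrast with the mutant-only regions can be drawn.

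**Figure D3:**
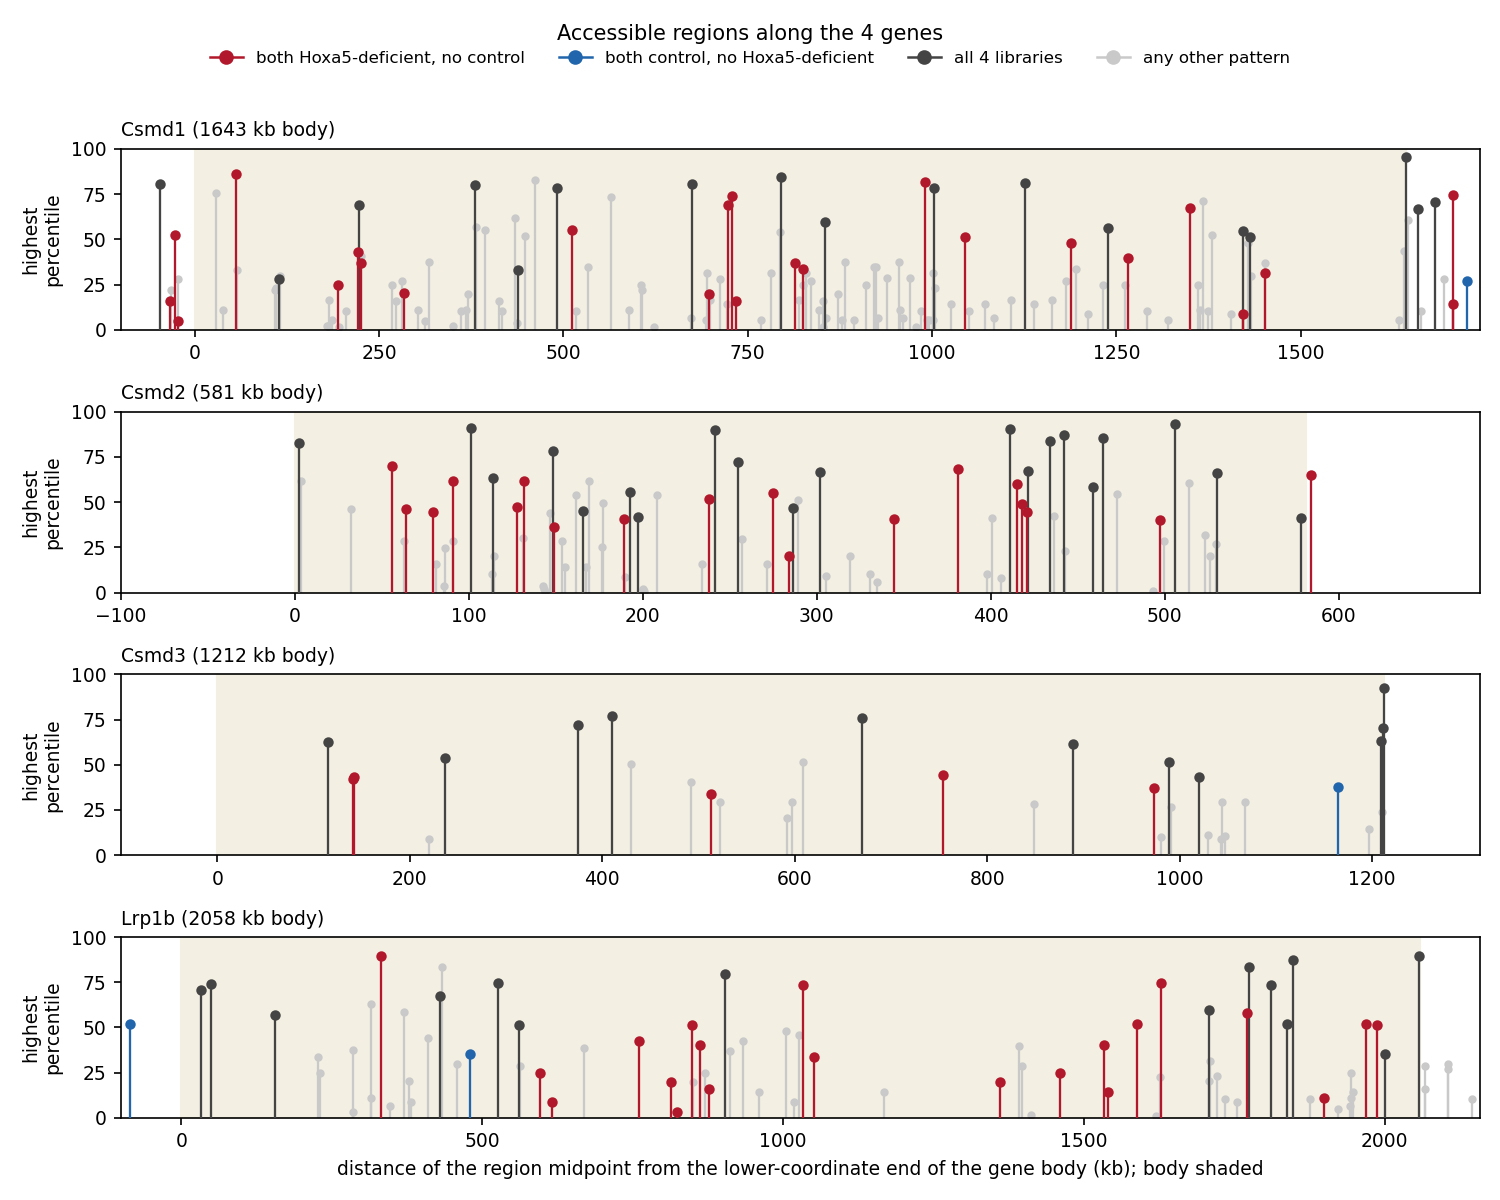
Regions of the 4 genes by distance of their midpoint from the lower-coordinate end of the gene body (x axis, kb) and by their highest percentile in any library (y axis), with the body shaded. Mutant-only regions are spread along Csmd1, Csmd2 and Lrp1b, and the strongest lies 332 kb into Lrp1b at percentiles 88.5 and 89.3.

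Regions open in all 4 libraries gave a second readout, although the same lists had served to choose the genes. Both Hoxa5-deficient percentiles lay above both control percentiles in 33 of the 62 (53.2%, beside 39.9% of all regions in all 4 libraries and 48.2% at other long genes). Both lay below in 10 (16.1%, beside 21.7% and 17.3%), and the genotypes overlapped in 19. The counts above and below were 10 and 2 of 14 at Lrp1b, 11 and 5 of 20 at Csmd2, 8 and 3 of 17 at Csmd1, and 4 and 0 of 11 at Csmd3. The share at the 4 genes was near that of other long genes.

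The median difference in percentile, Hoxa5-deficient minus control, was 8.17 over the 62 regions, beside 5.72 at other long genes and 1.22 over all regions in all 4 libraries. It was 13.4 at Lrp1b, 7.92 at Csmd3, 6.28 at Csmd2 and 2.21 at Csmd1. The median percentile of the shared Lrp1b regions was 68.1 and 70.2 in Hoxa5-deficient libraries, against 43.1 and 50.6 in controls. At Csmd1 it was 59.9 and 69.3 against 54.6 and 53.7, at Csmd2 59.1 and 65.0 against 58.4 and 52.5, and at Csmd3 61.1 and 56.9 against 46.8 and 41.1. The 2 genotypes' medians did not overlap at any of the 4 genes, with a gap under 1 point at Csmd2.

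Single shared regions differed in both directions within a gene. The following pairs were picked after their values were seen, as the highest and lowest difference of each gene. In Lrp1b, chr2:41120776-41121747 stood at 74.4 and 69.9 in Hoxa5-deficient libraries and at 31.4 and 22.9 in controls, while chr2:42432827-42433252 stood at 8.93 and 15.9 against 44.4 and 51.7. In Csmd2, chr4:128288120-128288509 stood at 62.3 and 66.8 against 21.8 and 28.4, while chr4:128450851-128451698 stood at 57.1 and 49.7 in Hoxa5-deficient libraries against 85.4 and 84.1 in controls. This last region was among the strongest of Csmd2 in the controls, with −log10 p of 67.3 and 52.7 there and of 12.5 and 10.8 in Hoxa5-deficient libraries.

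In Csmd1, chr8:16383779-16384349 stood at 72.6 and 78.2 in Hoxa5-deficient libraries and at 31.4 and 33.2 in controls, while chr8:17130631-17131240 stood at 8.93 and 20.4 against 56.1 and 33.2. In Csmd3, chr15:47954966-47955599 stood at 71.9 and 67.5 against 41.8 and 16.8. Its lowest difference, at chr15:48569671-48570271, had 8.93 and 15.9 in Hoxa5-deficient libraries against 5.58 and 51.7 in controls, where control replicate 2 alone was high and the genotypes overlapped. Thus 3 of the 4 genes held at least 1 region that ranked lower in both Hoxa5-deficient libraries than in both controls.

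Among the strongest regions in all 4 libraries, other than gene ends, 2 in Csmd2 stood high throughout. The region chr4:128428229-128429128 stood at 86.1 and 87.1 in Hoxa5-deficient libraries and at 82.5 and 82.6 in controls, and chr4:128087156-128088247 stood at 89.4 and 91.2 against 84.4 and 81.6. At Csmd1 the next after the gene end was chr8:15844824-15845402, 47.4 kb below the body, at 74.4 and 72.4 against 72.5 and 80.8. At Csmd3 it was chr15:48789672-48790180, at 62.9 and 56.9 against 58.4 and 45.6, and at Lrp1b it was chr2:40628313-40628789, at 66.5 and 70.4 against 61.2 and 58.8. The gap between the gene end and the next region was therefore wide at Csmd1, Csmd3 and Lrp1b, and Csmd2 instead had several strong regions inside its body.

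**Figure D4:**
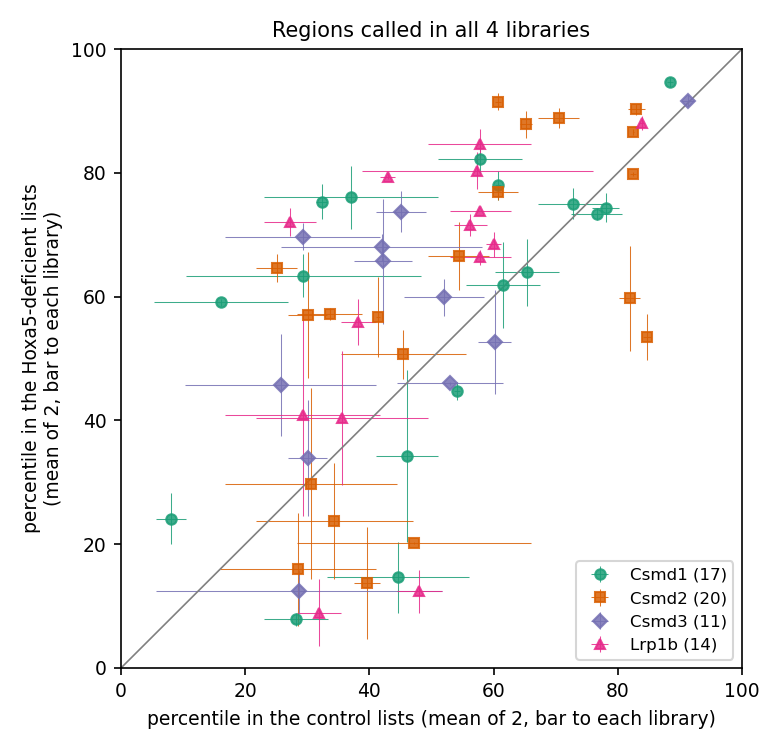
Mean percentile of each of the 62 regions called in all 4 libraries, in controls (x axis) and in Hoxa5-deficient libraries (y axis), coloured by gene, with a line of equality. Most Lrp1b points lie above the line (median difference 13.4), and points far on either side are seen in Csmd1, Csmd2 and Lrp1b.

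Member regions ranked low in every list. Their median percentile was 33.6 and 36.2 in Hoxa5-deficient libraries and 31.4 and 28.4 in controls, beside 43.2 and 44.3 against 41.8 and 39.2 at other long genes. Of them, 22 and 24 reached percentile 75 in Hoxa5-deficient libraries, against 10 and 12 in controls. As shares of member regions these were 10.7% and 10.8% in Hoxa5-deficient libraries and 8% and 8.96% in controls, beside 14.3% and 15.6% against 12.3% and 11.7% at other long genes and about 25% of all regions. Pooled over the 4 genes, both medians in Hoxa5-deficient libraries thus lay above those of the controls, by a small margin for the nearer pair. By gene the genotypes overlapped at Lrp1b, with 33.6 and 26.4 in Hoxa5-deficient libraries against 35.4 and 30.8 in controls. They also overlapped at Csmd3, with 33.6 and 42.3 against 41.8 and 37.5. The peaks covered 84.5 and 94.4 kb of the 4 genes in Hoxa5-deficient libraries and 43.8 and 49.0 kb in controls, or 412 and 423 bp per region against 351 and 366 bp. Over all regions the same mean was 511 and 509 bp in Hoxa5-deficient libraries and 476 and 477 bp in controls, and at other long genes it was 455 and 464 bp against 413 and 411 bp. Regions of long genes as a whole were thus narrower and lower in rank than all regions, and those of the 4 genes pooled more so. Csmd2 was an exception and lay near other long genes. Its median percentiles were 44.2 and 42.3 in Hoxa5-deficient libraries and 41.8 and 39.3 in controls. Its peaks covered 453 and 458 bp per region in Hoxa5-deficient libraries and 401 and 438 bp in controls.

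Regions were unevenly spread along the bodies. The longest stretch without any region was 193 kb in Lrp1b, 182 kb in Csmd1, 137 kb in Csmd3 and 48.0 kb in Csmd2. In Csmd1 the empty stretch lay just below the open upper end, from 1452 to 1634 kb, once regions in the nested gene C030002A05Rik were placed with that gene. With each body cut into 3 equal parts from its lower-coordinate end, Lrp1b had 3, 9 and 9 mutant-only regions and 6, 1 and 7 regions in all 4 libraries, so its middle part held 9 mutant-only regions beside 1 shared one. Csmd2 had 8, 5 and 4 mutant-only and 6, 5 and 9 shared regions. Csmd1 had 6, 8 and 5 against 5, 4 and 5, and Csmd3 had 2, 2 and 1 against 3, 2 and 5.

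Mutant-only regions of Lrp1b lay far from shared ones. Their median distance to the nearest region in all 4 libraries was 81.1 kb, with 1 of 21 within 10 kb. At Csmd2 it was 9.34 kb, with 9 of 18 within 10 kb. Csmd1 had a median of 24.8 kb with 3 of 24 within 10 kb, and Csmd3 one of 26.8 kb with 0 of 5. Over the 4 genes the median was 28.1 kb, beside 16.5 kb at other long genes and 13.2 kb over all mutant-only regions, and the share within 10 kb was 19.1%, beside 36.7% and 42.1%. Shared regions were sparser at Lrp1b, with 14 for a body of 2058 kb, than at Csmd2, with 20 for 581 kb.

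Of the 22 regions outside a body, 6 were mutant-only and 2 control-only, beside 10.3% and 3.42% of all regions. Thus 2 of the 4 control-only regions depended on the 100 kb limit. The farthest region kept was, for Lrp1b, a weak one called in control replicate 2 alone, 86.5 kb away at percentile 10.4, and for Csmd1 the control-only region 83.0 kb away. Csmd2 and Csmd3 had none beyond 3.14 kb and 0.348 kb. Just beyond the limit lay a mutant-only region 108 kb from Csmd3 at 37.2 and 11.1, a mutant-only region 139 kb from Lrp1b at 8.93 and 11.1, and a region called in all 4 libraries 129 kb from Csmd1. The last stood at 64.1 and 39.9 in Hoxa5-deficient libraries against 84.9 and 83.8 in controls.

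Other long genes shared the direction seen at the 4. Of the 207 other genes of 500 kb or more with at least 20 regions, 199 had more mutant-only than control-only regions, 2 had fewer and 6 had equal numbers. Among all 211 such genes, counted from the highest share of mutant-only regions, Lrp1b was number 15, Csmd2 number 36, Csmd1 number 93 and Csmd3 number 117. For the log2 ratio of region counts the places were 16 for Lrp1b, 29 for Csmd2, 99 for Csmd3 and 138 for Csmd1. The 4 genes were therefore not alike, with Lrp1b and Csmd2 in the upper part of the long genes and Csmd1 and Csmd3 near or below the middle. Csmd3 and Lrp1b were also sparse, at places 205 and 192 of 211 for regions per 100 kb.

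**Figure D5:**
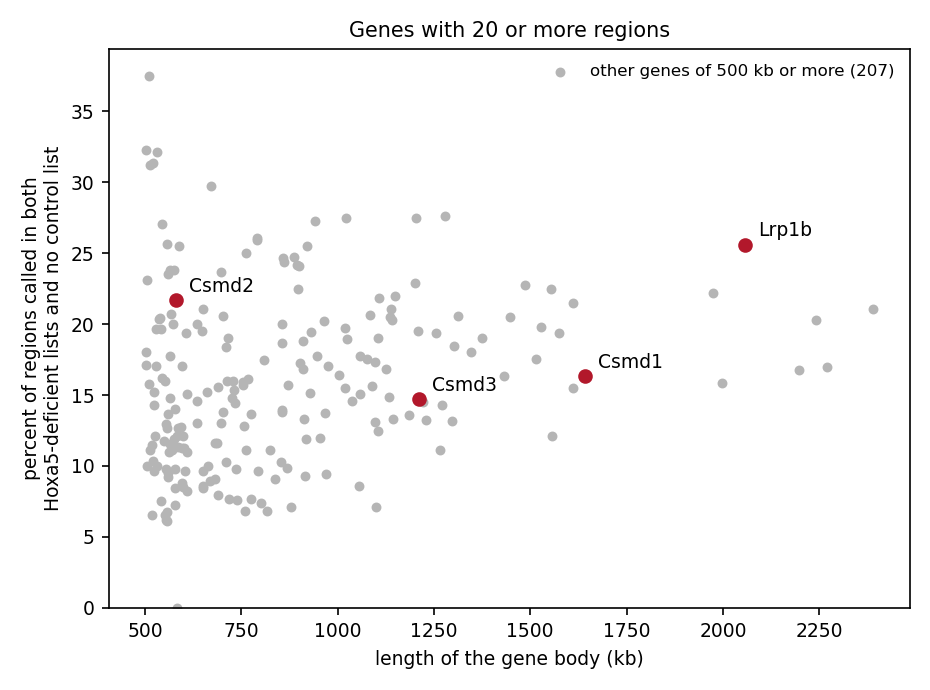
Percent of regions that were mutant-only (y axis) against the length of the gene body (x axis, kb). Points are the 211 genes of 500 kb or more with at least 20 regions, with the 4 genes named. Lrp1b (25.6%) and Csmd2 (21.7%) lie high, and Csmd1 (16.3%) and Csmd3 (14.7%) lie near the median of the other genes (15.5%).

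The 5 long genes whose division of regions over the 15 presence patterns was closest to that of the 4 pooled, by the summed absolute difference in shares divided by 2, were Fhit (0.0859), Rbms3 (0.0954), Sdk1 (0.0955), Cadm2 (0.0993) and Lrrc4c (0.104). Sdk1, Cadm2 and Lrrc4c encode neuronal adhesion proteins, Rbms3 an RNA-binding protein and Fhit a nucleotide hydrolase. Fhit had 29 mutant-only and 6 control-only regions of 135, and Cadm2 had 17 and 1 of 84. The same distance from the 4 pooled was 0.138 for Lrp1b, 0.148 for Csmd1, 0.201 for Csmd2 and 0.344 for Csmd3, which had only 34 regions. The 5 genes were picked as the closest, and further long genes also lay closer than Lrp1b, such as Dab1 (0.107) and Nkain2 (0.111).

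Relatives and partners of the 4 proteins were described by the same counts, with lists chosen while earlier results were known. In the LDL receptor family, 13 genes with 195 regions had 13 mutant-only (6.67%) and 6 control-only regions (3.08%), near the background of all regions placed at a protein-coding gene (9.16% and 3.5%). Of the 13, 4 genes had more mutant-only and 3 more control-only regions. The largest counts were 4 against 0 at Sorl1, a sorting receptor, and 3 against 0 at Lrp12, while Lrp8, a reelin receptor, had 3 against 1. At Lrp6, a Wnt co-receptor, the counts were 1 mutant-only and 2 control-only.

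Among 8 genes for proteins that bind such receptors, 175 regions held 20 mutant-only (11.4%) and 6 control-only (3.43%). Most lay at Reln, which encodes the secreted guidance protein reelin, with 10 and 3, and at App, the amyloid precursor protein gene, with 9 and 1. Among 9 other CUB or sushi domain genes, 213 regions held 19 mutant-only (8.92%) and 6 control-only (2.82%), led by the semaphorin co-receptors Nrp1 with 6 and 0 and Nrp2 with 5 and 3, then Sez6l with 4 and 1. Among 11 complement genes, 35 regions held 3 mutant-only (8.57%) and 2 control-only (5.71%), both of the control-only ones at C1qa, a subunit gene of the initiating C1q complex, which had 1 mutant-only region. The shares of mutant-only regions in these lists ran from 6.67% to 11.4%, below the 19.7% of the 4 genes, and all of their genes have bodies under 500 kb.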

How the data were processed

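ATAC-seq of 4 sorted libraries (2 Hoxa5-deficient, 2 control) was used as deposited peak lists, 1 per library. Tools named in the submitters' processing notes are MACS2 2.2.4, Bowtie2 2.3.4.3, FastQC 0.11.9 and SAMtools 1.9, and the build is mm10. Parameters and any Tn5 shift are not given in the sources used here. Per the values in the deposited lists, the authors' columns hold interval and summit positions, a score, a fold ratio over background, and −log10 p and q. The deposited lists end near −log10 p of 2.00, and 90.3% to 92.8% of their summits had q under 0.05.

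Regions were merged intervals (1 bp), placed by the rule given above with RefSeq gene bodies of GRCm38.p6 (21883 protein-coding genes). Percentiles rank each region's highest deposited −log10 p within its own library. The lowest background was solved from whole-number pileups at 20000 summits per library. Regions named are those at gene ends, the 3 mutant-only, 2 control-only and 2 shared regions of each gene with the highest lower percentile, and those nearest the 100 kb limit. The members, lists and this rule were chosen with earlier results of these data known, so no test was run. Counting was tested on simulated peaks. Python 3.11.15, pandas 2.3.3 and SciPy 1.17.1 were used.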

Additional observations from a re-analysis of the deposited data

How the results depend on the processing

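For the 4 genes together the values with all peaks were 68 mutant-only, 4 control-only and 62 shared regions, a log2 ratio of 0.72 and a percentile difference of 8.17. With a −log10 q of 5 or more, 36 of 135 member regions were mutant-only, 5 control-only and 30 shared. Shared regions were 43.7% of all regions at that setting. The log2 ratio was 1.04 beside 0.315 over all regions, and the difference 12.2 beside 2.26. Mutant-only regions were then 26.7% of member regions beside 13.8% of all, and control-only ones 3.70% beside 4.37%. By gene the control-only share was 7.14% at Csmd1, 6.25% at Lrp1b and 0% at Csmd2 and Csmd3. With an equal 163016 peaks per list, 40 were mutant-only, 12 control-only, the log2 ratio was 0.24, and that of Csmd1 reversed to −0.10. Mutant-only shares were then 14.2% at the 4 genes and 7.78% of all regions, and control-only shares 4.27% and 5.64%. When a library had to cover 50% of a region, 78 were mutant-only (22.5% beside 13.4% of all) and 7 control-only (2.02% beside 4.12%). At that setting 32 of 346 were shared, beside 23.5% of all regions, and the log2 ratio was 0.93 beside 0.36. Counting only regions inside bodies left 2 control-only (0.617% beside 3.42% of all regions). Leaving out 1 library at a time gave 79 to 121 mutant-only, 7 to 40 control-only and 65 to 78 shared regions. Log2 ratios were 0.66 to 0.78 and differences 6.43 to 9.86. Member regions then numbered 293 to 311, and shared regions made up 37.8% to 40.5% of all regions. Class counts grow there because fewer libraries must meet the definition: mutant-only regions numbered 121 and 107 without Hoxa5-deficient replicate 1 or 2, and control-only ones 7 and 8, against 40 and 39 without control replicate 1 or 2. At those last 2 settings the control-only share was 12.9% and 12.6% at the 4 genes beside 12.8% and 14.4% of all regions. It thus no longer lay far below background. Csmd1 had 27 mutant-only and 26 control-only regions without control replicate 1 and 29 and 24 without replicate 2. Its control-only shares, 21.0% and 19.7%, lay above those of all regions, and those of each other member lay below. The mutant-only share of the 4 genes together stayed above that of all regions whichever library was left out (25.4% to 39.4% beside 14.9% to 25.1%). At Csmd3 it was 23.1% beside 25.1% of all regions without Hoxa5-deficient replicate 1. The cause of the other shifts was not tested. Ranked only among shared regions, the difference was 5.72, and −0.53 over all. Summit windows and placement by summit kept the 5 values for the 4 genes together within 1.5 times (counts) or the spread between libraries. No paired analysis was possible because no model was fitted and the labels do not tie replicate numbers to litters. Depth is known only relative to control 1 (0.946 and 1.12 in Hoxa5-deficient libraries, 0.807 in control 2), and weak peaks near the deposited threshold limit presence calls.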

Other observations

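Other annotated genes lie inside the 4 bodies. The protein-coding gene C030002A05Rik, at chr8:17353634-17492395 within Csmd1, took 13 regions by the shortest-body rule, of which 3 were called in all 4 libraries, 1 was mutant-only, 7 were called in 1 Hoxa5-deficient library and 2 in 1 control. They are not among the 147 of Csmd1. The long non-coding RNA gene Csmd2os, at chr4:128134652-128164180 within Csmd2, overlapped 10 of the Csmd2 regions, 2 of them called in all 4 libraries, 3 in exactly 3, 1 mutant-only and 4 in 1 Hoxa5-deficient library. The microRNA genes Mir3106 in Csmd1 and Mir6336 in Lrp1b held no region, and the nearest region midpoints lay 3.94 kb and 4.75 kb away.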
